A study of Mus musculus with 3 samples.

Results

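The odorant transduction cascade was followed in 3 sorted fractions of olfactory epithelium cells through 10 genes, named by a fixed list and measured by 24 of the 34945 probe sets with a single gene symbol, control probe sets left out. They are 10 of the 18193 genes on the array. The genes are Omp, Adcy3, Gnal, Cnga2, Cnga4, Pde1c, Slc24a4, Gnb1, Gng13 and Gng8. Each was read from its brightest probe set, and every one of these lay above the floor of 104, the pooled median signal, on all 3 arrays.

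The cells were those of male and female pups, aged between postnatal days 5 and 8, of the transgenic mouse strain Tgn1-2G. In this strain, as is known from elsewhere, regulatory sequence of Neurog1 drives GFP. Neurog1 is a proneural factor of olfactory progenitors, so that bright fluorescence marks young neurons. The fractions were 1000000 strongly fluorescent cells (GFP+++), 1300000 weakly fluorescent cells (GFP+) and 6800000 cells without fluorescence (GFP-), each pooled from what the labels number as 32, read here as animals. By the submitters' account GFP+++ was rich in immature neurons, GFP+ slightly rich in mature ones, and GFP- held every cell type with fewer immature neurons. All 3 carried the transgene, and 1 array per fraction gives no replicate spread, and so neither a test nor a p-value.

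In a mature olfactory sensory neuron an odorant receptor activates the G protein Golf, which turns on a cyclase whose cyclic AMP opens a cation channel in the cilia. Calcium entering through it feeds back on the enzymes, and an exchanger clears it at the end of the response. Golf is a heterotrimer of alpha, beta and gamma subunits. In mouse olfactory epithelium, Gng8 is known as a gamma subunit of immature neurons and Gng13 as the one of mature neurons.

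The cyclase, a phosphodiesterase, 1 channel subunit, the calcium exchanger and Omp each had at least 2-fold less signal in strongly than in weakly fluorescent cells, while the Golf subunits and the channel subunit Cnga2 differed less. With each array scaled by its median signal instead, Pde1c alone of these stayed past 2-fold. Gng8 went the other way and was brightest in GFP+++. Of the 10 genes, 7 had the order GFP+ over GFP- over GFP+++, which 13.3% of the 12331 genes above the floor on any array shared. With median scaling, Cnga4 and Gng13 of the 7 had GFP+++ above GFP-. The exceptions were Cnga2 with GFP+++ second, Gnb1 with GFP- first, and Gng8. In a sorted population, fewer cells of a type and less RNA per cell cannot be told apart.

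**Figure D1:**
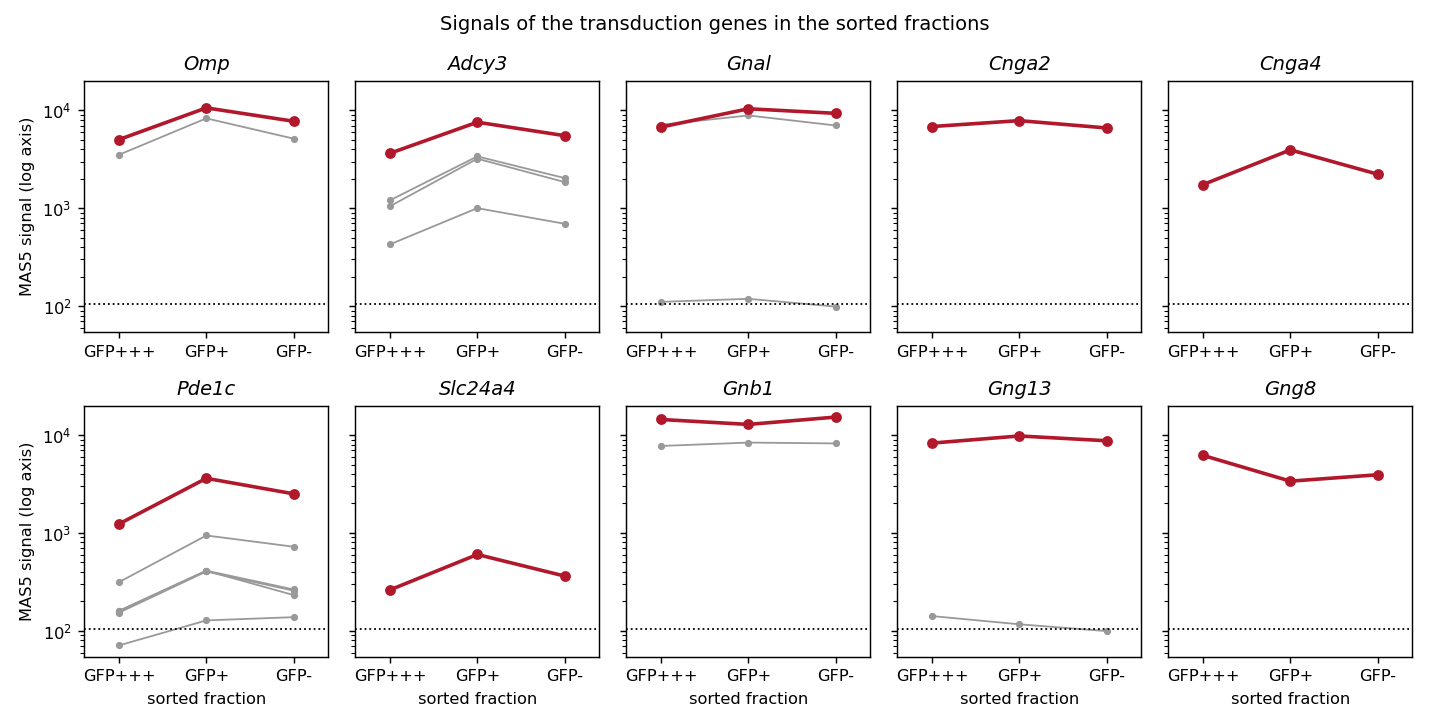
MAS5 signal on a logarithmic axis of each gene in the 3 sorted fractions, with 1 panel per gene. Red points are the reporting probe set, grey points the other probe sets of the gene above the floor on at least 1 array, and the dotted line the floor of 104. Omp, Adcy3, Cnga4, Pde1c and Slc24a4 peak in GFP+, and Gng8 peaks in GFP+++ at 6192.

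Promoters of the genes are shown because the ciliary genes peaked together in GFP+ and Gng8 in GFP+++. RefSeq sequences of GRCm38.p6, from 250 bases before to 50 after a start site, were matched for 8 of the 10 genes at 12 start sites, all but Omp and Gnal. They were searched on both strands for CCCNNGGG, the core letters of the binding motif of Ebf factors, which are known regulators of olfactory neuron genes. It lay in promoters of 4 of the 8 genes, Cnga2, Cnga4, Slc24a4 and Gng13, against 15.4% of 27025 genes with a promoter in the table. By start site it lay in 4 of 12, against 13.7% of 32851. For Gng13 the first start site had it and the second did not. It was not found in promoters of Adcy3, Pde1c, Gnb1 and Gng8. The homeodomain motif TAATTA (6.12%) and TATAAA (15.7%) were found in 0 of the 8. For GFP+++ against GFP+ the genes with the core letters were both past 2-fold (Cnga4 and Slc24a4) and within it (Gng13 and Cnga2). A match is a run of letters and not a bound site, and its absence says only that the window lacks these letters.

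The promoters with the core letters and that of Gng8 follow, 5′ to 3′, with CCCNNGGG in capitals. Counting bases before the start site as negative, the match starts at -66 in Cnga2 (chrX:71991599-71991898, plus strand), at -109 in Slc24a4 (chr12:102128477-102128776, plus strand) and at 25 in Cnga4 (chr7:105404318-105404617, plus strand). In Gng13 (chr17:25716922-25717221, plus strand) a pair of overlapping matches starts at -95 and -94. Gng8 (chr7:16891536-16891835, plus strand) has no capitals.
Cnga2: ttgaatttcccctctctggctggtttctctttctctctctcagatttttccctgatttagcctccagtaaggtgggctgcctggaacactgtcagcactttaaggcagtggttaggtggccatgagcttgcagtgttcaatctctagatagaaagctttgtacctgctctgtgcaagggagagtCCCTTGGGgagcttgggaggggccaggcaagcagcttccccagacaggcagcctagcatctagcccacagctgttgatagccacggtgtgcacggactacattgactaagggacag
Cnga4: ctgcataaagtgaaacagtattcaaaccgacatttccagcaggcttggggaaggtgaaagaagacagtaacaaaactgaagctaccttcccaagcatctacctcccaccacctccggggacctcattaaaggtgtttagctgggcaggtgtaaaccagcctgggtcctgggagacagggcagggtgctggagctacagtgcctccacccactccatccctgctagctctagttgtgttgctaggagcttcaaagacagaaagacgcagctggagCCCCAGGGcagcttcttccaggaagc
Slc24a4: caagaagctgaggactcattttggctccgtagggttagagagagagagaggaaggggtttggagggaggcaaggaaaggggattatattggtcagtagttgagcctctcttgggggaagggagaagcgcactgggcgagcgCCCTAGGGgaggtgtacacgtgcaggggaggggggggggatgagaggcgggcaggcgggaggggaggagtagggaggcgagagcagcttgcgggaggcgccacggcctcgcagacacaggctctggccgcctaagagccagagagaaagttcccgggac
Gng13: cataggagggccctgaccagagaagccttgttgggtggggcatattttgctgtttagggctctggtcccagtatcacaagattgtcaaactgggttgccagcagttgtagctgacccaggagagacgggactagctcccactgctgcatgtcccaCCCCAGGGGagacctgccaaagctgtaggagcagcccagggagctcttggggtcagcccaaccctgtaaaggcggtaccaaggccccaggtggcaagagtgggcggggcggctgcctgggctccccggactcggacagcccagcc
Gng8: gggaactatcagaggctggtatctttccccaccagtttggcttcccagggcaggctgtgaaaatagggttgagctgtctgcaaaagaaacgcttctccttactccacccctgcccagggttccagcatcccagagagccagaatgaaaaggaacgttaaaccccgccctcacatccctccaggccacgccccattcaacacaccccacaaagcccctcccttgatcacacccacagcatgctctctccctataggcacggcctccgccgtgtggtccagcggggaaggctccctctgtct

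Omp, the olfactory marker protein and classical label of mature neurons, gave a signal of 5041 in GFP+++, of 10615 in GFP+ and of 7748 in GFP-, and signals are listed in this order of fractions from here on. The weakly fluorescent cells thus held the highest signal, 2.11-fold above GFP+++ and 1.37-fold above GFP-. Its second probe set gave 3528, 8297 and 5148. Both placed GFP+++ lowest.

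Adcy3, the type III adenylyl cyclase that makes cyclic AMP in olfactory cilia, gave 3653, 7578 and 5522. Its 2.07-fold step from GFP+++ up to GFP+ was all but that of Omp, and on the log2 scale the fold of Adcy3 stood 0.02 above the fold of Omp. All 4 probe sets of Adcy3 kept the order GFP+ over GFP- over GFP+++. Their folds between GFP+ and GFP+++ ran from 2.07 at the brightest probe set to 3.05 at one with a mean signal of 2039.

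Among the subunits of the cyclic nucleotide gated channel, Cnga2 and Cnga4 parted. Cnga2, the main pore-forming subunit, gave 6845, 7862 and 6617. Its 3 arrays lay close together, with GFP+++ 1.15-fold under GFP+ and 1.03-fold over GFP-. Cnga4, a modulatory subunit that speeds adaptation, gave 1749, 3951 and 2232. GFP+ stood out here, 2.26-fold above GFP+++ and 1.77-fold above GFP-, the highest fold over GFP- of the 10 genes. Each of the subunits had a single probe set.

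Pde1c, the calcium and calmodulin dependent phosphodiesterase of olfactory cilia that degrades cyclic AMP, gave 1237, 3615 and 2510. It showed the largest span of the 10 genes, 2.92-fold between GFP+ and GFP+++. It was also the one gene of the 10 that GFP+++ held at least 2-fold below GFP- (2.03-fold), although the median over its 6 probe sets fell short of 2-fold at a log2 fold of -0.73. Of the 6, 5 lay above the floor on all arrays and ranged from 2.57-fold to 2.99-fold less signal in GFP+++ than in GFP+. The dimmest gave 71.1, 128 and 138, the first under the floor.

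Slc24a4, the potassium dependent sodium and calcium exchanger that ends the response, was the dimmest member. Its only probe set gave 262, 602 and 363. GFP+ was again highest, 2.30-fold over GFP+++ and 1.66-fold over GFP-.

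The Golf subunits were bright on every array. Gnal, the alpha subunit of Golf, gave 6757, 10389 and 9335, with GFP+++ 1.54-fold under GFP+. Its second bright probe set gave 7143, 8879 and 7018, so that GFP+ was highest in both but GFP+++ and GFP- changed places. Another lay at the floor, with 111, 119 and 99.1.

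Gnb1, the beta subunit paired with Golf in these neurons, gave 14418, 12839 and 15254. It had the highest signal of the 10 genes on each array and the smallest fold between GFP+++ and GFP+ (1.12-fold). A second probe set gave 7736, 8377 and 8212, with GFP+ highest in place of lowest, so the small differences of Gnb1 had no settled direction. Another lay under the floor on all arrays.

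The gamma subunits did part. Gng13, the gamma subunit of mature neurons, gave 8277, 9786 and 8744. GFP+ was highest by 1.18-fold over GFP+++, the other arrays lay within 1.06-fold of each other, and a second probe set near the floor gave 142, 117 and 99.4. Gng8, read from a single probe set, gave 6192, 3380 and 3928. GFP+++ stood 1.83-fold over GFP+ and 1.58-fold over GFP-, the reverse of the order of Adcy3, Cnga4, Pde1c and Slc24a4.

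A difference between the log2 folds of Gng8 and Gng13 on the same arrays carries no scaling factor. It was 1.12 for GFP+++ against GFP+, with 0.87 for Gng8 and -0.24 for Gng13. For GFP+++ against GFP- it was 0.74, with 0.66 for Gng8 and -0.08 for Gng13. For GFP+ against GFP- it was -0.38, with -0.22 for Gng8 and 0.16 for Gng13. The spread between probe sets of 1 gene gives such a difference an SD of 0.42, 0.43 and 0.34 in these comparisons, so the sizes were 2.64, 1.72 and 1.12 times their SD. That SD reflects only how far probe sets of the same gene disagree within a comparison. Variation among repeated arrays, sorts or mice is outside it, so these multiples are descriptive and not a test.

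Against Omp, which the scaling cancels in the same way, Gng8 stood 1.95 higher on the log2 scale for GFP+++ against GFP+ and 1.28 higher for GFP+++ against GFP-. The Golf subunits and Cnga2 lay between Omp and Gng8. For GFP+++ against GFP+ the log2 fold exceeded that of Omp by 0.45 for Gnal, 0.83 for Gng13, 0.87 for Cnga2 and 1.24 for Gnb1. Cnga4, Slc24a4 and Pde1c lay below Omp, at -0.10, -0.13 and -0.47.

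**Figure D2:**
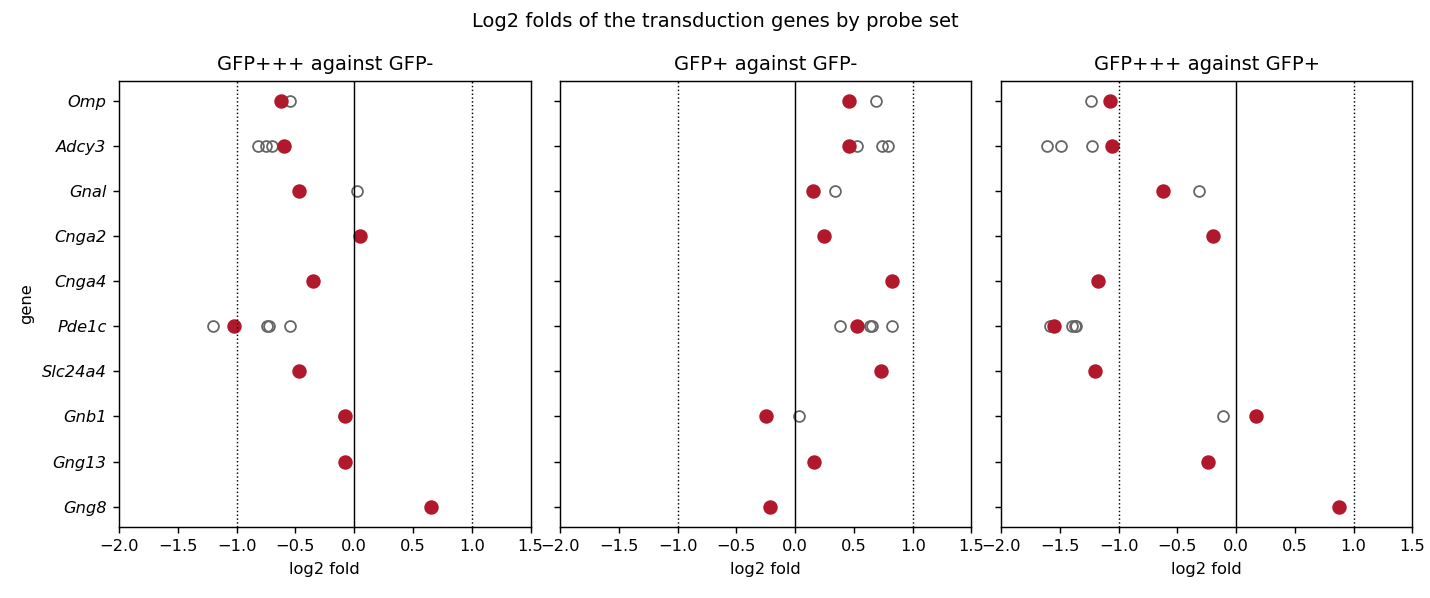
Log2 folds of each gene in the 3 comparisons between fractions, read from probe sets above the floor on all arrays. Red points are the reporting probe sets, open points the others, and dotted lines mark 2-fold. For GFP+++ against GFP+ the red points of Omp, Adcy3, Cnga4, Pde1c and Slc24a4 lie past 2-fold and Gng8 stands alone on the right at 0.87, with Gnb1 at 0.17.

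Counted over the 10 genes, GFP+++ against GFP+ had 5 at least 2-fold lower, namely Omp, Adcy3, Cnga4, Pde1c and Slc24a4, and 0 at least 2-fold higher. Of all 11881 genes compared, 9.34% were at least 2-fold lower and 0.985% at least 2-fold higher. The members' median log2 fold was -0.84 beside -0.02 for all genes, and 2 of 10 lay above 0 where 47.9% of all genes did. With each array scaled by its median signal, the median of all genes became 0.25 and the lower share of all calls went from 90.5% to 64.8%. Pde1c (-1.27) then remained at least 2-fold lower and Gng8 (1.15) was at least 2-fold higher, while Omp (-0.80), Adcy3 (-0.78), Cnga4 (-0.90) and Slc24a4 (-0.92) fell short of it. Cnga2 (0.08) and Gng13 (0.04) turned above 0 with that scaling, and Gnb1 turned to -0.15 with quantile normalization. By the median over probe sets Gng13 (0.02) lay above 0 as well. Relative to all genes the members' median was -0.82 with the trimmed mean and -0.81 with the median scaling. These values had to lie close, as a scaling factor shifts the members and all genes alike. The same difference was -0.98 with quantile normalization and -0.73 with the median over probe sets.

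GFP+++ against GFP- had 1 member at least 2-fold lower, Pde1c, and 0 at least 2-fold higher, where 12.4% of 12235 genes were lower and 1.92% higher by that much, so the share of members that were lower is near the background. The median was -0.41 beside 0.01 for all genes, and 2 of 10 genes lay above 0, Cnga2 and Gng8, against 50.7% of all genes. With median scaling the median of all genes became 0.42, the lower share of all calls went from 86.6% to 48.1%, Pde1c was at -0.60 and Gng8 at 1.07. Relative to all genes the members stood at -0.42 and -0.41 under these scalings, which nearly cancel in such a difference. They stood at -0.39 with quantile normalization and at -0.22 with the median over probe sets. Cnga4 (0.06), Gnb1 (0.33) and Gng13 (0.34) turned above 0 with median scaling, and Gnb1 (0.10) also with quantile normalization. By the median over probe sets Gnal (0.03) and Gng13 (0.18) lay above 0.

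GFP+ against GFP- had no member past 2-fold, where 0.607% of 12196 genes were higher and 0.804% lower by that much. Yet 8 of 10 members lay above 0, against 48.8% of all genes, with a median of 0.35 beside -0.01. Cnga4 (0.82), Slc24a4 (0.73) and Pde1c (0.53) led, at percentiles 98.5, 97.6 and 93.8 of all genes compared, and Omp and Adcy3 stood at 91.4 and 91.5. Gnb1 (-0.25) and Gng8 (-0.22) lay below 0, and Gnb1 turned to 0.25 with quantile normalization. With median scaling the median of all genes was 0.13, and the lower share of all calls went from 57.0% to 26.0%. The members' median relative to all genes was 0.36 under both scalings, where a scaling factor nearly cancels. It was 0.50 with quantile normalization and 0.41 with the median over probe sets. The comparisons share arrays, so their values are not independent of each other.

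The members differed in brightness as well as in fold. Omp apart, the brightest members Gnb1, Gng13, Gnal and Cnga2, with mean signals of 14170, 8936, 8827 and 7108, had the smaller folds, and Slc24a4, Pde1c and Cnga4, with means of 409, 2454 and 2644, the larger ones. Omp and Adcy3 went against this, as both were bright, with means of 7802 and 5585, and passed 2-fold for GFP+++ against GFP+. Of all genes above the floor in both GFP+++ and GFP+, 1.36% of those with a mean signal of 5000 or more passed 2-fold, against 4.29% at 1000 to 5000 and 11.7% below 1000. Their median log2 fold in size was 0.25, 0.24 and 0.33, so the typical fold was no smaller in the brightest class than in the middle one. The part of brightness in the members' folds was not tested.

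Cells other than neurons were unevenly spread over the fractions, and their part in these differences was not tested. All 5 immune and all 5 fibroblast markers lay above the floor in GFP-, and 4 and 5 of them in GFP+++. Their summed signals were 575, 9712 and 12366 for immune and 2047, 19651 and 31088 for fibroblast markers, so GFP- exceeded GFP+++ by 21.5-fold and 15.2-fold. The 7 sustentacular cell markers summed to 41094, 48070 and 65678. The 4 glial markers gave 1652, 6280 and 9568, the 3 horizontal basal cell markers 264, 984 and 1664, and the 5 microvillar and chemosensory markers 558, 1759 and 3100. Of these last Trpm5 and Plcb2 lay under the floor everywhere. The 3 respiratory ciliated cell markers differed least, with 2725, 3054 and 2704, Dnah5 being under the floor everywhere.

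Neuronal markers were set against the labels of the fractions. The 11 immature neuron markers, all above the floor, summed to 93366, 58301 and 71939, with GFP+++ highest. The 10 mature neuron markers on the array, all above the floor on each, summed to 55367, 79297 and 74448, so mature markers were bright in GFP+++ too. Both lists hold members described here.

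Genes of immature neurons lay mostly on the side of Gng8. Of 18 immature neuron genes 17 lay above 0 for GFP+++ against GFP+, where 47.9% of all genes did, with a median log2 fold of 0.57. Of the 18, 3 were at least 2-fold higher, against 0.985% of all genes. These were Nhlh1 (1.18), a transcription factor of newly formed neurons, Ablim1 (1.12), an actin binding protein, and the tubulin Tubb2b (1.05). The bright cytoskeletal regulators Stmn1 (0.48), Stmn2 (0.50), Dpysl2 (0.40) and Dpysl3 (0.52) stayed within 2-fold. For GFP+++ against GFP- 2 of the 18 were at least 2-fold higher, Nhlh1 (1.23) and Crmp1 (1.07), against 1.92% of all genes.

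The 13 further genes of mature neurons were uneven. For GFP+++ against GFP+ 11 lay below 0 and 2 above it, where 47.9% of all genes lay above, with a median of -0.49. Of the 13, 3 were at least 2-fold lower, against 9.34% of all genes. Ncam2 (-1.70) is a cell adhesion molecule of neurons, and Cidea (-2.01) and Pcp4l1 (-1.06) were the others. The very bright S100a5 (-0.42), a calcium binding protein, and Stoml3 (-0.32), a stomatin-like protein of olfactory cilia, stayed within 2-fold, and so did Umodl1 (-0.83). Calb2 (0.46), or calretinin, lay above 0. For GFP+ against GFP- the list was split, with 7 above and 6 below 0 and a median of 0.04, beside 8 of 10 and 0.35 for the members. Faim2 (1.07) alone passed 2-fold, and Ncam2 (-0.70) and S100a5 (-0.33) lay below 0.

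The other gamma subunits mostly had more signal in GFP+++ than in GFP+, some of them by little. Of 9 on the array 6 passed the floor. For GFP+++ against GFP+ 5 of these lay above 0, where 47.9% of all genes did, with a median of 0.39. Gng2 gave 1945, 857 and 1026, with GFP+++ 2.27-fold over GFP+, a log2 fold of 1.18 that was 0.92, short of 2-fold, with the median over its probe sets. Gng3, a gamma subunit of neurons, gave 2670, 1630 and 715. GFP+++ was highest and GFP- lowest, with folds over GFP- of 3.73 for GFP+++ and 2.28 for GFP+. Gng8 in contrast had slightly less signal in GFP+ than in GFP-, at a log2 fold of -0.22. That is within the probe set SD of 0.24 for this comparison, and it was -0.08 with median scaling. Gng10 (0.54) and Gng4 (0.06) stayed within 2-fold for GFP+++ against GFP+, and Gng11, with 39.6, 306 and 394, was at least 2.93-fold lower. Among 8 gamma subunits with signal, Gng13 and Gng11 were the ones with less signal in GFP+++ than in GFP+. The sign of Gng13 was not settled, being 0.04 with median scaling and 0.02 with the median over its probe sets.

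The alpha subunits showed no common direction. Of 11 that passed the floor, 5 lay above and 6 below 0 for GFP+++ against GFP+, with a median of -0.22 that turned to 0.05 with median scaling. Gnas, the stimulatory alpha subunit closest to Gnal, gave 6396, 4864 and 6558. GFP+ was thus the lowest array for Gnas (1.31-fold under GFP+++) and the highest for Gnal. Gnao1, an alpha subunit abundant in neurons, gave 4700, 3890 and 3116 with GFP+++ 1.51-fold over GFP-. The inhibitory Gnai1 (221, 648 and 888) and Gnai2 (736, 1395 and 1789) were highest in GFP- and lowest in GFP+++, 4.01-fold and 2.43-fold apart, and Gna13 (0.45) and Gnai3 (-0.31) stayed within 2-fold.

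Of the beta subunit list 4 of 5 passed the floor, of which Gnb1l is a related protein rather than a subunit. Gnb5, a beta subunit that pairs with RGS proteins, gave 606, 944 and 615, a peak in GFP+ of 1.56-fold over GFP+++. Gnb4 gave 235, 484 and 497, with GFP+++ 2.06-fold under GFP+. Gnb2 (-0.29) and Gnb1l (0.36) stayed within 2-fold.

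The other adenylyl cyclases had signals of at most 513, and none of those above the floor peaked in GFP+. Of 9 on the array 6 passed the floor. All 6 had a log2 fold under 0 for GFP+ against GFP-, where 48.8% of all genes lay above 0. Their median was -0.31 beside 0.46 for Adcy3, and it was -0.23 with median scaling. Adcy7 gave 51.5, 394 and 513, Adcy6 gave 98.8, 329 and 425, and Adcy2 gave 115, 241 and 262. For GFP+++ against GFP+ they were at least 3.78-fold, at least 3.15-fold and 2.11-fold lower. Adcy1 (246, 287 and 370) stayed within 2-fold.

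**Figure D3:**
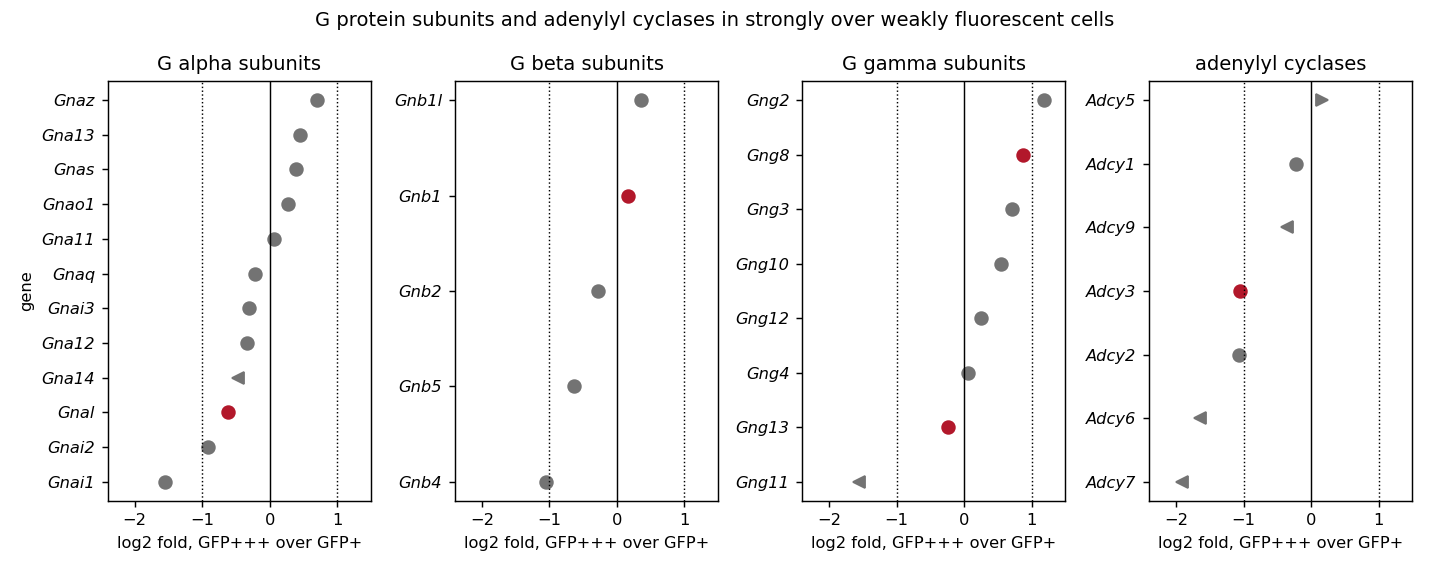
Log2 folds of GFP+++ over GFP+ for the G alpha, beta and gamma subunits and the adenylyl cyclases that passed the floor of 104, ordered within each family. Red points are genes of the transduction list, grey points their relatives, triangles mark folds that are bounds because 1 array lay under the floor, and dotted lines mark 2-fold. Gng8 (0.87) and Gng13 (-0.24) lie on opposite sides of 0, though Gng13 was 0.04 with median scaling and 0.02 with the median over its probe sets. Gng2 lies past 2-fold at 1.18, or at 0.92 with the median over its probe sets.

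Of the remaining channel genes only Cngb1, the beta subunit of the olfactory channel, passed the floor, at 113, 121 and 128. Its probe set was so near the floor that its folds carry little. Of the phosphodiesterases other than Pde1c, 13 of 16 on the array passed the floor. In GFP+++ 0 were counted at least 2-fold lower than in GFP- or in GFP+, where 12.4% and 9.34% of all genes were. Pde8b, Pde4b and Pde1a lay under the floor in GFP+++. Their folds under GFP- are thus bounds, at least 1.97-fold, 1.76-fold and 1.02-fold, and may be larger. Against GFP+ 12 were compared, and Pde4b and Pde8b were bounds there too, at least 1.59-fold and 1.25-fold. The counts of 0 therefore depend in part on the floor. Pde7b, a cyclic AMP phosphodiesterase, gave 4027, 7179 and 6351, the order of Pde1c at 1.78-fold between GFP+ and GFP+++. Pde8a (3475, 2075 and 2006) and Pde1b (450, 246 and 206) were instead highest in GFP+++ and lowest in GFP-, and for Pde1b GFP+++ was 2.18-fold over GFP-. Pde2a (1205, 1467 and 1057), the phosphodiesterase known from a cyclic GMP subset of olfactory neurons, and Pde6d (5730, 5624 and 4285) stayed within 2-fold.

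Among the ion transporters Slc8a1, a sodium and calcium exchanger, went with Slc24a4. It gave 411, 1177 and 729, which put GFP+ 2.86-fold over GFP+++ and 1.61-fold over GFP-. Slc12a2, the chloride loader of olfactory neurons, was bright and even, with 12300, 10564 and 11851. Ano1, a calcium gated chloride channel of secretory epithelia, gave 73.4, 892 and 1654 so that GFP+++ lay at least 15.8-fold under GFP-. Its relative Ano2, a listed marker of mature neurons, had no probe set with its symbol alone and was not read. Slc24a2 (1404, 2006 and 1514) and the calcium pump Atp2b1 (902, 1565 and 1459) stayed within 2-fold, and Slc24a3 (70.8, 148 and 216) had GFP+++ at least 2.07-fold under GFP-.

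Regulators of the response had 23 genes on the array, and for GFP+++ against GFP+ 2 of them were at least 2-fold lower and 0 at least 2-fold higher. Of all genes 9.34% were lower and 0.985% higher by that much, so the share of regulators that were lower is near the background. Rgs2, which in mouse olfactory neurons is known to dampen cyclase activity, gave 192, 699 and 976. Grk3, a kinase of activated receptors in olfactory cilia, gave 114, 238 and 320. GFP+ exceeded GFP+++ by 3.63-fold and 2.09-fold in these, and GFP- was highest. Ric8b, the exchange factor of Golf, was picked after its values were seen. It gave 4350, 6974 and 5528, the order GFP+ over GFP- over GFP+++ at 1.60-fold between GFP+ and GFP+++. The bright Prkar1a (0.41), Bex1 (0.69) and Pkia (0.20) stayed within 2-fold. Car2, a carbonic anhydrase that marks the cyclic GMP subset of olfactory neurons, gave 1851, 3747 and 2870 with GFP+ 2.02-fold over GFP+++. Trpc2 and Gucy1a1, which shared a list with Car2 here, reached 158 and 137 at most. A shared list does not place them in the same cells as Car2.

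Over the 9 lists of subunits, enzymes, channels, transporters and regulators, without those of immature and mature neurons, 97 genes were on the array beside the 10, and 11 of 71 compared were at least 2-fold lower and 1 at least 2-fold higher for GFP+++ against GFP+, with a median of -0.26. The 5 of 10 members past 2-fold stand beside that count and the 9.34% of all genes, with no test between them.

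Genes with the most similar pattern were found by the distance between pairs of log2 folds (GFP+++ and GFP+, each against GFP-) over 3 arrays. For Gng8, 4273 genes of like brightness were searched, and the nearest were Tubb3 at 0.0068, Scai at 0.011, Limk2 at 0.035 and Dpysl5 at 0.036. Tubb3, the neuronal tubulin, gave 8626, 4681 and 5463. For Omp, of 2606 genes, Adcy3 was nearest at 0.024, followed by Sema7a (0.066), Car2 (0.071) and Nfe2l2 (0.16). Sema7a, a membrane bound semaphorin, gave 1276, 2669 and 2018. For Gng13, of 2206 genes, Tlk1 (0.017), Stx6 (0.022), Wdfy3 (0.028) and Togaram1 (0.029) were nearest, all with flat profiles. The distances rest on 3 arrays and describe these alone.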

How the data were processed

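Per the submitters' processing notes the authors used MAS5, and they deposited its linear signal intensity for each probe set of an Affymetrix mouse array. The version of MAS5 is not given in the sources consulted. On each array the deposited values had a 2% trimmed mean of 500.0. Here the 3 arrays were scaled to that mean, values under the pooled median of 104 were raised to it, and arrays were compared by log2 fold. A fold of 2 or more was counted, and a fold with 1 array under the floor is a bound. Symbols came from the platform annotation, and the RefSeq table of GRCm38.p6 changed 0 of them. A gene was read from its probe set with the highest mean signal, and 9183 of 18193 genes had 1 probe set. In the order GFP+++, GFP+ and GFP-, the median signal was 88.2, 107 and 118, and the floor was passed by 10734, 11674 and 12031 genes.

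With 1 array per group there is no test, and the number of arrays limits the precision. Probe sets of the same gene had log2 folds with a pooled SD of 0.30 for GFP+++ against GFP-, 0.24 for GFP+ against GFP- and 0.30 for GFP+++ against GFP+. The counting steps were tested on simulated data. Members and gene lists were chosen with earlier results of these data known. Of each list the 4 brightest genes and those past 2-fold in any comparison were eligible to be named. Similar patterns were sought among genes above the floor on all arrays, within 4-fold of the member's mean signal. Alternatives were median scaling, quantile normalization, a floor at the 65th percentile (276), no floor, the median over probe sets, leaving out probe sets ending in _x_at or _s_at, and leaving out Gng8. Values were computed with Python 3.11.15, numpy 2.4.6, pandas 2.3.3 and scipy 1.17.1.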

Additional observations from a re-analysis of the deposited data

How the results depend on the processing

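No paired analysis was possible because each fraction has 1 array, and for the same reason no replicate could be left out. Of the 180 values of single members under alternatives, 11 changed sign, 5 of them with median scaling. Many of the 180 could not move, so the share that changed understates how unsettled the signs are. Without a floor, and without probe sets ending in _x_at or _s_at, each member kept its main value. The floor at the 65th percentile moved Slc24a4 alone. Over GFP+++ against GFP-, median scaling gave 1 member at least 2-fold higher and 0 lower and a median of 0.0067, and the median over probe sets gave 0 lower. Over GFP+++ against GFP+, median scaling gave 1 member higher and 1 lower. The log2 difference of Gng8 and Gng13 for GFP+ against GFP- was -0.66 with quantile normalization. Its sign in each comparison held under the 6 alternatives run for it. Of these, only quantile normalization and the median over probe sets could change the difference. A scaling factor cancels in it, and the probe sets read for both genes lay above each floor and were never left out. With the median over probe sets the difference was 0.48 for GFP+++ against GFP- and 0.85 for GFP+++ against GFP+.

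The other pathway genes depended more on the floor. For GFP+++ against GFP- they numbered 2 higher and 11 lower, which became 8 and 7 with median scaling (median 0.29), 1 and 4 with the 65th percentile floor, and 24 lower without a floor. For GFP+++ against GFP+ they were 1 higher and 11 lower, which became 5 and 7 with median scaling, 5 and 20 without a floor, 5 lower with the 65th percentile floor and 0 higher with the median over probe sets, where Gng2 (0.92) fell short of 2-fold. For GFP+ against GFP- they were 1 and 0, and 2 and 7 without a floor. The causes were not tested. Genes near the floor, such as Cngb1, give no reliable ratio.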
